A study of Homo sapiens with 8 samples.

Results

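RNA close to the peroxidase APEX2 in the nucleus was captured and sequenced in HEK293T, a line derived from human embryonic kidney that carries the SV40 large T antigen. Every cell used here expressed APEX2 targeted to the nucleus (NLS), in the controls as well. The labelled group held 2 libraries and the unlabelled control group 2 libraries, which makes 4 of the 8 libraries of the series. Both groups went through streptavidin capture of biotinylated RNA and a stranded total RNA kit. The labels do not name the promoter, the clone or the step that was left out in the controls. They give release of captured RNA with Proteinase K in one place and an RNeasy kit in another, and these statements were not reconciled. The comparison covered all genes: of 60664 listed in the count table, 20858 had enough counts to be tested. Separate cultures are not named in the labels, and the p-values then reflect only how far these libraries vary, possibly for technical reasons.

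APEX2 turns biotin-phenol into a short-lived radical when hydrogen peroxide is added, and the radical tags RNA and protein near the enzyme. Most messenger RNA is spliced, exported and translated in the cytoplasm, while unspliced precursors, introns, many long non-coding RNAs and mRNAs with detained introns remain in the nucleus. A difference between labelled and control captures is a ratio of relative abundances and gives no absolute amount of RNA in the nucleus.

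The control libraries held 20746393 and 21096586 counts, and the labelled libraries 9531568 and 8039176. Although shallower, the labelled libraries detected 31638 and 31545 genes, against 24931 and 30715 in the controls. Log2 CPM, counts scaled to the library's total, correlated across genes with a Pearson r of 0.965 between controls and 0.986 between labelled libraries. Control 3 held more small RNA than control 1, with summed levels of 19111 and 6878 CPM for the class misc_RNA, so small RNA values are given per library. All 10 markers of HEK293 cells had more than 3 counts in each library. Of 14 markers of other cell types, 5 to 8 had more than 3 counts, and together they reached 10.5 to 14.5 CPM in any library.

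Long non-coding genes and pseudogenes rose more often than they fell, mtDNA-encoded genes fell and mRNAs were divided (edgeR quasi-likelihood test, Benjamini-Hochberg adjusted p under 0.05 over all genes tested). In all, 5999 genes were higher in the labelled libraries, 28.8% of those tested, and 5945 were lower, 28.5%. Scaling by library size alone, without the TMM factors that equalise the bulk of genes, gave 9122 higher and 3351 lower. It moved the median log2 fold change of all tested genes from 0.14 to 0.66. Directions of modest changes are therefore relative to the scaling. Without labelled library 1 the genes higher numbered 3196, and without labelled library 3 they numbered 3077.

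Protein-coding genes were the only class of over 1000 tested genes in which more genes fell than rose. Of 13843 tested, 2686 rose, 19.4%, and 5495 fell, 39.7%, so that 59.1% were called. Their median log2 fold change was -0.26 under TMM and became 0.26 with library size alone. Under that scaling 5026 rose and 3075 fell. Among 3385 long non-coding genes tested, of 14795 listed, 1575 rose and 114 fell. Among 1762 pseudogenes tested, of 14672 listed, 934 rose and 170 fell. Without labelled library 1, 708 long non-coding genes and 428 pseudogenes rose, and without labelled library 3, 661 and 447 rose, with 1766 protein-coding genes. Long non-coding genes that fell numbered 250 without control 1, 242 without control 3, 62 without labelled library 1 and 56 without labelled library 3. Pseudogenes that fell numbered 260 without control 1, 70 without labelled library 1 and 57 without labelled library 3. All 36 mtDNA-encoded genes tested fell. Their share of counts was 4.49% and 3.19% in the controls, against 0.850% and 0.812% after labelling. By contrast, lincRNA genes, the long non-coding genes between other genes, took 1.02% and 1.43% of control counts and 4.45% and 4.77% of labelled counts.

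**Figure D1:**
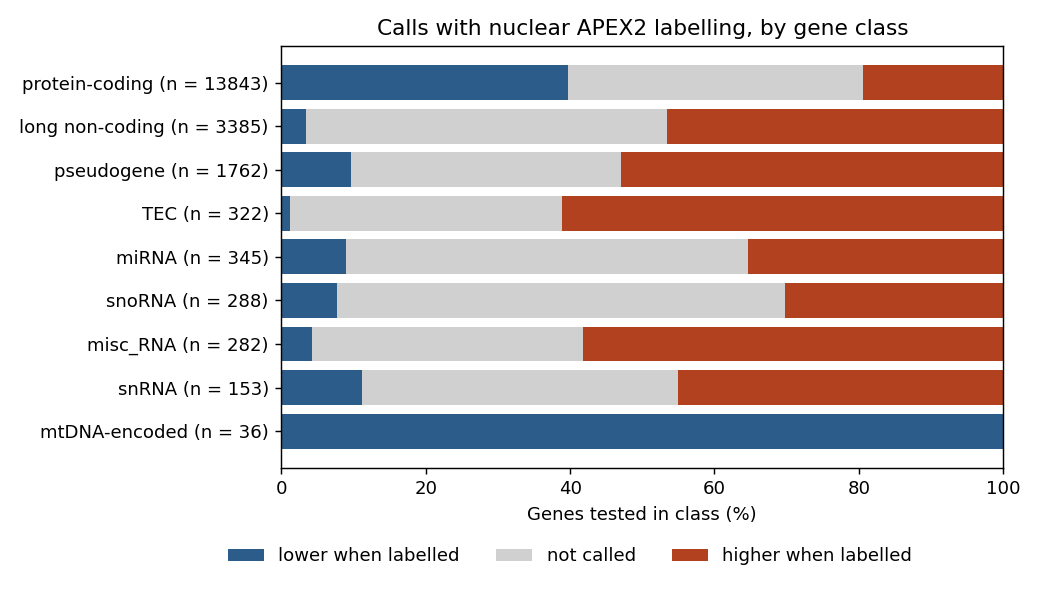
Share of tested genes in each class that were lower (blue), not called (grey) or higher (red) in the labelled libraries, with the number tested in brackets. Protein-coding genes had 39.7% lower and 19.4% higher, whereas all 36 mtDNA-encoded genes were lower.

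Filtering on counts bears on these class figures. Of the 6597 tested genes outside the protein-coding and mtDNA classes, 3785 reached the count minimum in the labelled libraries alone, 220 in the controls alone and 2386 in both groups. Genes that passed through the labelled libraries alone had to be higher there, so their number is a description. The summed level of all listed members, tested or not, does not depend on the filter. For the 14795 long non-coding genes it came to 27481 and 35160 CPM in the controls, against 62211 and 65437 CPM after labelling.

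Most of the nuclear long non-coding RNAs examined rose. From a list of 26, 18 were tested. Of these, 14 rose, 77.8%, and none fell in edgeR, beside 46.5% and 3.4% of all long non-coding genes tested. The median log2 fold change was 2.38 on the list, beside 1.76 for all long non-coding genes tested. At an unadjusted p under 0.05, 0 on the list were lower, and DESeq2 called 0 of them lower. CASC15 did not pass the test: its log2 fold change was -1.45 ± 0.63 (SE) with an adjusted p of 0.0823, and it passed as lower without control 1, at -1.61, or without control 3, at -1.32. MALAT1 (ENSG00000251562, chr11:65497688-65506516, plus strand) lies in nuclear speckles, bodies rich in splicing factors. Its level was 1128 and 1183 CPM in the controls against 5239 and 6257 CPM after labelling. The labelled values were all above the control values, by a log2 fold change of 2.31 ± 0.13 (SE, edgeR adjusted p = 1.82e-05).

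NEAT1 (chr11:65422774-65445540, plus strand), the architectural RNA of paraspeckles, was at 86.7 CPM in control 1 and 99.99 CPM in control 3. It was at 1274 and 1440 CPM in the labelled libraries, a log2 fold change of 3.86 ± 0.13 (edgeR adjusted p = 1.46e-05). Per kilobase of exon, MALAT1 had the higher level in each library, with 593 CPM per kilobase against 55.9 for NEAT1 in labelled library 1. The gap between them was wider in control 1, at 128 and 3.81 CPM per kilobase. Both RNAs lack an ordinary poly(A) tail at the end shown here. Each ends instead in a triple helix of U-rich and A-rich stretches, made when RNase P cuts just ahead of a tRNA-like RNA, which for MALAT1 is mascRNA. The elements are shown because these ends are shared by the 2 RNAs of highest labelled level on the list. They are from GENCODE 29 transcripts on GRCh38, plus strand, 100 bases each, at chr11:65506017-65506116 for MALAT1 and chr11:65445441-65445540 for NEAT1. Capitals mark runs of 8 or more bases found in both.
MALAT1 element: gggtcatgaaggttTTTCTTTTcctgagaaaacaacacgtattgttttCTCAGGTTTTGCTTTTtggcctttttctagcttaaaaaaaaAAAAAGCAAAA
NEAT1 element: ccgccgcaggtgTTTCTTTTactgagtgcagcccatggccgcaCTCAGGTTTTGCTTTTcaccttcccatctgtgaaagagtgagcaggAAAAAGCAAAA
mascRNA: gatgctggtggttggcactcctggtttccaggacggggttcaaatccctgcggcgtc
The shared runs were 8, 16 and 11 bases long, and mascRNA (57 bases, chr11:65506117-65506173) directly follows the MALAT1 element.

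KCNQ1OT1, DANT2 and FTX also rose. KCNQ1OT1 (chr11:2608328-2699994, minus strand), the imprinted antisense transcript of KCNQ1, was at 52.0 and 66.4 CPM in the controls and at 1087 and 995 CPM when labelled. Its log2 fold change was 4.14 ± 0.15 (edgeR adjusted p = 1.46e-05). DANT2, a long non-coding RNA of the X chromosome, went from 1.77 and 0.691 CPM to 38.4 and 35.8 CPM. It had the largest fitted change of the list, 4.90 ± 0.34. FTX, a non-coding gene of the X inactivation centre, was at 27.4 and 34.1 CPM against 247 and 259 CPM, a change of 3.04 ± 0.13. Groups did not overlap for KCNQ1OT1, DANT2 or FTX.

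CDKN2B-AS1, which acts at the CDKN2A locus, rose by 3.09 ± 0.19 on the log2 scale and MIAT by 3.06 ± 0.37. MIR17HG, the primary transcript of a microRNA cluster, rose by 2.44 ± 0.16. FIRRE, which anchors chromosomal loci in the nucleus, rose by 1.56 ± 0.11, and HOTAIR by 0.84 ± 0.23, a call lost without labelled library 3, where it was 0.77. TERC, the telomerase RNA template, did not pass the test: it stood at 51.4 and 70.7 CPM in the controls and 64.7 and 45.0 CPM when labelled. TUG1 stood at 230 and 203 CPM against 193 and 241 CPM, and its values overlapped. With library size alone TUG1 passed the test, at a log2 fold change of 0.52.

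A list of 14 long non-coding RNAs known from the cytoplasm or as hosts of small nucleolar RNAs was divided. Of 12 tested, 6 rose and 2 fell, while 46.5% of all long non-coding genes tested rose and 3.4% fell. The share that rose was therefore close to that of the class. The median log2 fold change was 0.52 on this list, beside 1.76 for all long non-coding genes tested. NORAD, a cytoplasmic RNA that binds Pumilio proteins, was at 472 and 414 CPM in the controls and 221 and 217 CPM when labelled, a change of -1.02 ± 0.10 (edgeR adjusted p = 9.89e-05). SNHG6 fell by 1.02 ± 0.14. Both had every labelled value under every control value. EPB41L4A-AS1 and ZFAS1, both hosts of small nucleolar RNAs, rose by 1.59 ± 0.17 and 1.30 ± 0.16. GAS5 and SNHG5, also hosts, rose by 0.66 ± 0.11 and 0.67 ± 0.12. DANCR and CYTOR rose by 0.39 ± 0.14 and 1.57 ± 0.52, calls that were lost without either labelled library and, for DANCR, without control 1. Several members of this list hold small nucleolar RNA genes within their introns or overlap other genes, and the strand setting used for counting is not given in the sources used here.

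**Figure D2:**
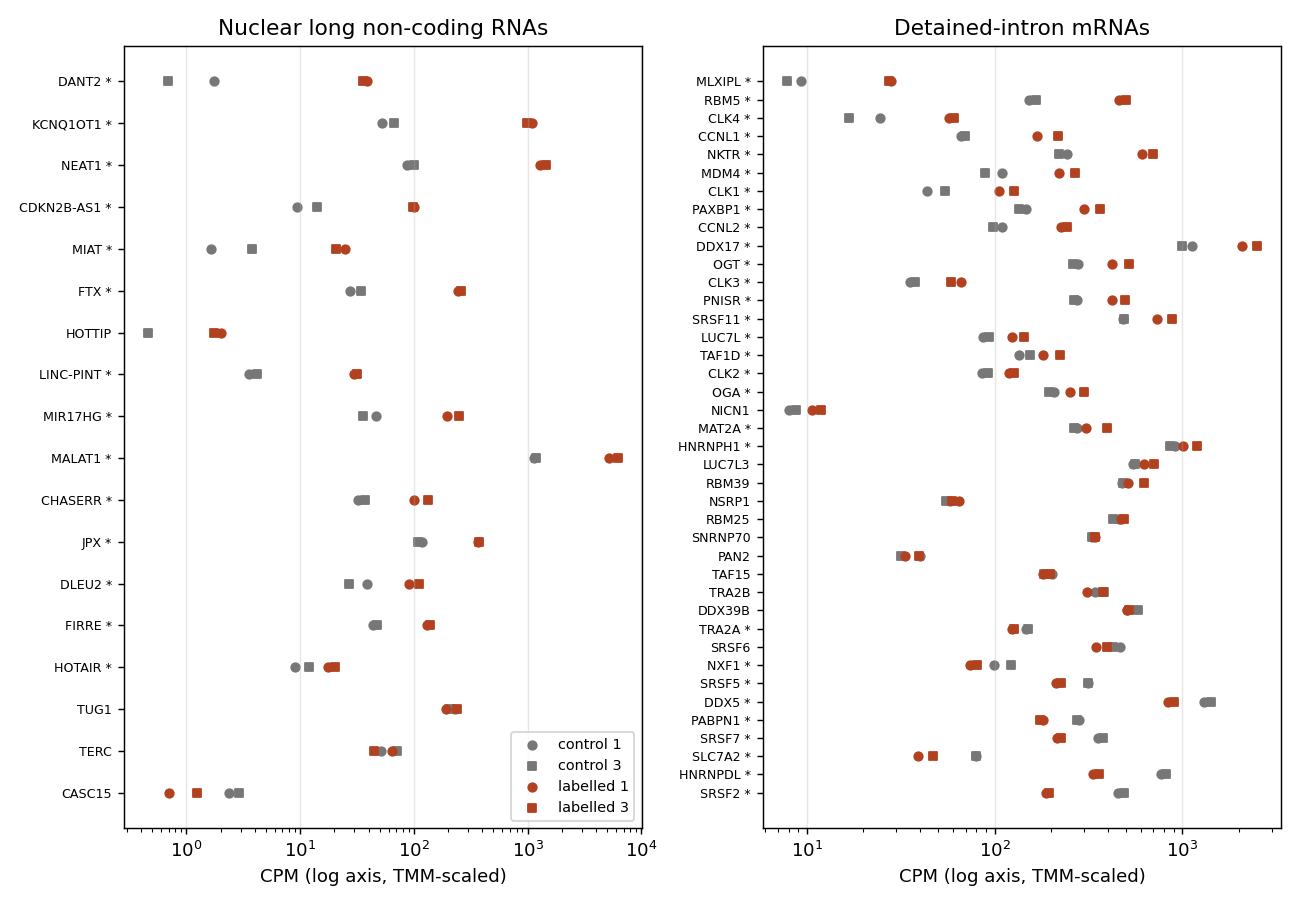
CPM on a log axis in each of the 4 libraries (grey, controls; red, labelled) for nuclear long non-coding RNAs and for mRNAs with detained introns, ordered by fold change; an asterisk marks genes past the test, and 1 tested mRNA is not shown. KCNQ1OT1, NEAT1 and MALAT1 lie far to the right of their controls, while SRSF2 and HNRNPDL lie to the left.

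Genes inside introns were higher as a whole. Non-coding genes and pseudogenes lying within an intron of a protein-coding gene on the same strand numbered 4735 in the table. Their summed level, tested or not, came to 1950 and 2927 CPM in the controls, against 7895 and 8043 CPM after labelling, 3.27 times higher. For genes inside a protein-coding gene on the opposite strand, 7243 in number, the sums were 4043 and 11021 CPM against 6220 and 5306 CPM. Those groups overlapped, and a single 7SL gene of this set, RN7SL1 within RPS29, was at 8682 CPM in control 3. For the 22771 genes outside protein-coding genes, the sums were 28358 and 44531 CPM against 58489 and 57348 CPM, 1.59 times higher.

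Among tested genes, 1236 of 1849 in same-strand introns rose and 39 fell. Their median log2 fold change was 2.89 when genes without control counts are held at a bound of 3 counts per library. Of those 1849, 1529 reached the count minimum in the labelled libraries alone, so the sums over all listed genes carry the description. The number that rose was 430 without labelled library 1 and 415 without labelled library 3. It was 606 with a minimum count of 50. The number that fell was 72 without control 1, 19 without labelled library 1, 13 without labelled library 3 and 25 with a minimum count of 50.

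Pseudogenes differed between strands. The 1309 pseudogenes in same-strand introns summed to 540 and 685 CPM in the controls and 2759 and 2617 CPM when labelled. The 2379 on the opposite strand summed to 768 and 850 CPM and to 551 and 534 CPM. In the first set both labelled sums were above the controls. In the second both were below them under TMM, but with library size alone the sums overlapped, at 649 and 702 CPM in the controls and 657 and 642 CPM when labelled. Of tested processed pseudogenes, the reverse-transcribed copies of spliced mRNAs, 383 of 525 rose and 20 fell in same-strand introns, whereas 18 of 103 rose and 40 fell on the opposite strand. Scaled by library size alone, these counts were 427 and 9, and 21 and 31. Without labelled library 1, 157 rose in same-strand introns and 15 fell on the opposite strand. Without labelled library 3, these were 169 and 12. For long non-coding genes the opposite strand was higher as well, with 1159 and 1260 CPM in the controls and 3242 and 3267 CPM when labelled. Loci typed TEC, transcripts that GENCODE holds for experimental tests, went from 141 and 144 CPM to 907 and 961 CPM in same-strand introns.

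**Figure D3:**
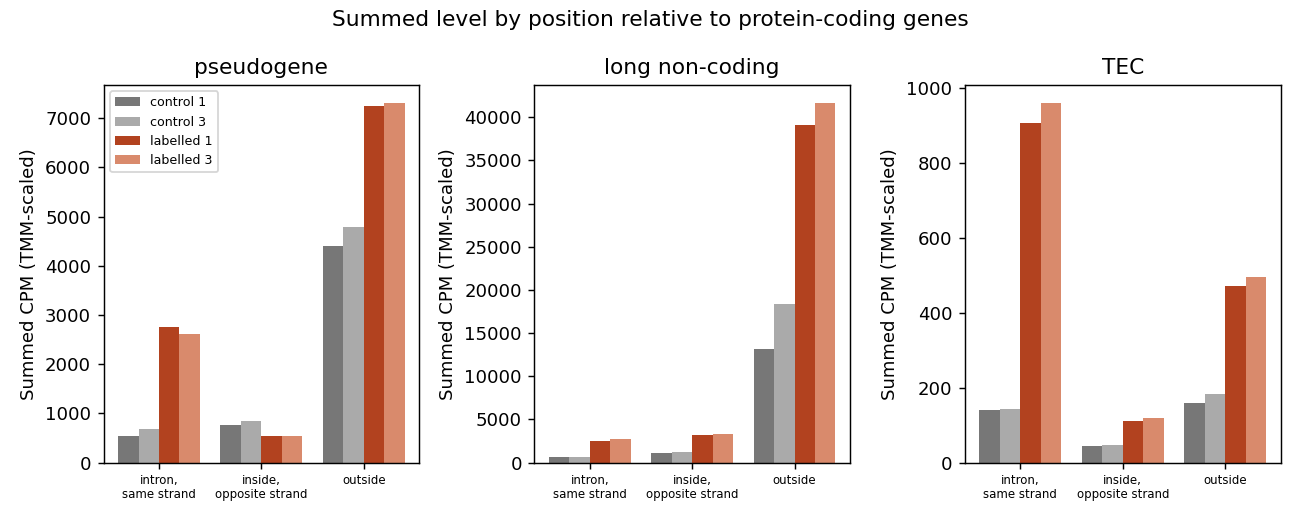
Summed CPM over all listed genes in each library for pseudogenes, long non-coding genes and TEC loci, by position relative to protein-coding genes; bars start at 0 and the scale differs between panels. In same-strand introns the labelled bars exceed the controls in all 3 classes, while opposite-strand pseudogenes are lower when labelled.

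Intronic genes were higher also where their hosts were lower. The hosts of 1206 listed intronic genes were mRNAs that fell: these 916 hosts summed to 156582 and 156533 CPM in the controls and 80820 and 78041 CPM when labelled, a ratio of 0.507 that was 0.727 with library size alone. The genes within them went from 723 and 1246 CPM to 2648 and 2725 CPM, a ratio of 2.73. In the 659 hosts that rose, the host ratio was 1.77 and that of the genes inside 3.88. In the 1132 hosts not called, these ratios were 1.00 and 3.69. Hosts were grouped by their own call, so the direction of their ratios was set by that choice. TYRO3P, a processed pseudogene at chr15:76258986-76261690 in ETFA, illustrates the split. It was at 0.971 and 0.461 CPM in the controls and 28.2 and 26.0 CPM when labelled, a log2 fold change of 5.22 ± 0.34 (edgeR adjusted p = 2.1e-05). Its host ETFA, an electron transfer flavoprotein subunit, was at 198 and 211 CPM against 106 and 112 CPM, a change of -0.91 ± 0.09.

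KRT8P39, a keratin pseudogene within NUP107, rose by 3.78 ± 0.22, from 2.06 and 2.30 CPM to 29.5 and 30.6 CPM. NUP107, which encodes a nuclear pore scaffold protein, fell by 0.66 ± 0.11. SEPTIN14P12 within ASPM rose by 3.84 ± 0.30 while ASPM, a spindle pole gene, fell by 0.56 ± 0.10. A gene that went the other way was ENSG00000260035 (chr15:45200325-45200632, minus strand), a long non-coding gene in an intron of SHF. It was at 121 and 164 CPM in the controls and 12.7 and 7.89 CPM when labelled, a change of -3.78 ± 0.24 (edgeR adjusted p = 2e-05). SHF itself rose by 2.31 ± 0.33. Reads from intron-containing precursors of a host and reads from a gene within its intron cannot be told apart in these counts.

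In the small RNA families, source genes differed from scattered copies, and the copies differed by position. Of 36 source genes tested for U1, U2, U4, U5, U6, 7SK, 7SL and Y RNAs, none rose and 13 fell in edgeR. The 13 were 36.1%, whereas 28.8% of all genes tested rose and 28.5% fell. The median log2 fold change of the source genes was -1.30. At an unadjusted p under 0.05, 0 were higher, and DESeq2 called 0 higher. Of the source genes, 1 rose with library size alone, without control 1 there were 3 and without control 3 there were 5. The source genes that fell numbered 22 without control 1. Of 241 related copies tested, 160 rose, 66.4%, and 7 fell. Outside protein-coding genes 11 of 31 copies rose, 35.5%, and 2 fell. All 3 tested U5 copies fell, as did all 5 U5 source genes. In same-strand introns 137 of 184 copies rose and none fell, in edgeR, at an unadjusted p and in DESeq2. The copies that rose there numbered 18 without labelled library 1, 19 without labelled library 3 and 30 with a minimum count of 50. At any position they numbered 22, 23 and 37. In such introns 170 of 175 tested misc_RNA genes and 88 of 92 snRNA genes reached the count minimum in the labelled libraries alone. For the whole class misc_RNA, which holds the 7SL, 7SK and Y copies, the 596 genes in same-strand introns summed to 38.3 and 58.0 CPM in the controls and 404 and 409 CPM when labelled. For the 467 snRNA genes in such introns the sums were 23.5 and 34.6 CPM against 203 and 241 CPM.

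Y RNAs are small RNAs bound by the Ro60 protein, largely in the cytoplasm. RNY3 was at 16.9 and 39.7 CPM in the controls and 1.59 and 1.77 CPM when labelled, a change of -4.07 ± 0.47 (edgeR adjusted p = 0.000214). RNY1 was at 12.7 and 41.0 CPM against 2.74 and 1.56 CPM, a change of -3.62 ± 0.60 (edgeR adjusted p = 0.00132). RNY4 was at 3.03 and 19.7 CPM against 0.442 and 0.727 CPM. Control 3 was highest for each, and without it RNY3 still fell by 3.33 and RNY1 by 2.54 on the log2 scale.

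Of 4 tested Y RNA copies in same-strand introns, 2 rose and 2 were not called, and over all 6 tested copies 2 rose and 1 fell. RNY1P9, in an intron of KLHL22, had 0 and 3 counts in the controls and 32 and 29 in the shallower labelled libraries (edgeR adjusted p = 0.00693). RNY4P7, in an intron of WDR33, had 0 and 2 counts against 26 and 19 (edgeR adjusted p = 0.00821). These sequences are shown because source and copy are close enough to share short reads. RNY1 is at chr7:148987136-148987248 (minus), RNY1P9 at chr22:20475203-20475311 (minus), RNY4 at chr7:148963315-148963410 (plus) and RNY4P7 at chr2:127798903-127798998 (minus), all GRCh38 from GENCODE 29. Capitals mark bases of the copy that did not align to an identical base of the source.
RNY1: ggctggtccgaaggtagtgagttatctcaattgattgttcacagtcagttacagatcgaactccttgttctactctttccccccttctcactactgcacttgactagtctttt
RNY1P9: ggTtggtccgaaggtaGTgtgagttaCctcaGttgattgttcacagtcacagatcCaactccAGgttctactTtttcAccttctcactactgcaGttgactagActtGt
RNY4: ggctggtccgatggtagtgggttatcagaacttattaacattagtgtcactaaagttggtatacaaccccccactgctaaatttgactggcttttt
RNY4P7: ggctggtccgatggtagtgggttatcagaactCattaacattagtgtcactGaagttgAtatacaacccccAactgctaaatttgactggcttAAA
In RNY1P9 96 of 109 bases aligned identically, 88.1%, and in RNY4P7 89 of 96, 92.7%, so reads of source and copy may have been split by the authors' counting.

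Spliceosomal RNAs were lower or not called. RNU4-2, a U4 gene, was at 27.8 and 42.4 CPM in the controls and 7.86 and 3.32 CPM when labelled, a change of -2.63 ± 0.37 (edgeR adjusted p = 0.000593). RN7SK, the nuclear RNA that holds the elongation factor P-TEFb inactive, was at 2977 and 4519 CPM against 3227 and 1971 CPM. Its values overlapped (log2 fold change -0.53 ± 0.26, edgeR adjusted p = 0.111), although it passed the test without control 1, at -0.81, and without labelled library 1, at -0.90. RN7SL1, the RNA of the signal recognition particle, ran from 1283 to 8682 CPM and was not called.

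The 773 listed microRNA loci in same-strand introns summed to 114 and 163 CPM in the controls and 407 and 404 CPM when labelled. The 218 that touch a host exon on the same strand summed to 777 and 934 CPM and to 612 and 551 CPM, and these sums overlapped with library size alone, at 657 and 771 CPM against 730 and 663 CPM. Of 153 tested intronic loci, 71 rose and 3 fell, and 133 of the 153 had reached the count minimum in the labelled libraries alone. The number that rose was 4 without labelled library 1, 7 without labelled library 3, 110 without control 3 and 12 of 23 with a minimum count of 50. Of 132 tested loci touching an exon, 18 rose and 26 fell under TMM, and 31 rose and 16 fell with library size alone. Leaving out each library in turn gave 5 to 46 that rose and 13 to 45 that fell, lowest without labelled library 3. MIR1244-1, within PTMA, fell by 2.84 ± 0.28, and PTMA, the prothymosin alpha mRNA, fell by 1.74 ± 0.13. MIR3917, within STMN1, fell by 2.00 ± 0.27, and STMN1, a tubulin-binding protein mRNA, fell by 1.40 ± 0.10.

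DDX5, an RNA helicase, departed from this. Its mRNA was at 1296 and 1415 CPM in the controls and 834 and 897 CPM when labelled, a change of -0.65 ± 0.11 that was no longer called with library size alone, at -0.13. Both hairpins annotated within it rose. MIR5047 was at 6.34 and 11.6 CPM in the controls and 34.2 and 32.9 CPM when labelled, a change of 1.90 ± 0.27 (edgeR adjusted p = 0.000641). MIR3064 was at 19.3 and 16.4 CPM against 31.4 and 40.4 CPM, a change of 1.01 ± 0.19 (edgeR adjusted p = 0.00238). Their mature sequences, from RefSeq on GRCh38.p14, identify these loci, with the seed, bases 2 to 8, in capitals. They lie on the minus strand of chromosome 17.
hsa-miR-3064-5p: uCUGGCUGuuguggugugcaa
hsa-miR-3064-3p: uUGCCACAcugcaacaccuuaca
hsa-miR-5047: uUGCAGCUgcgguuguaaggu
No seed was shared among them. The counts cover the hairpin locus and do not separate mature microRNA from host RNA.

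Small nucleolar RNAs, which guide modification of ribosomal RNA, rose about as often as all tested genes and fell less often. Of 288 tested, 87 rose, 30.2%, beside 28.8% of all genes tested, and 22 fell, 7.6%, beside 28.5%. With library size alone 137 of them rose. The number that rose was 182 without control 3, 139 without control 1 and 18 without either labelled library, and the number that fell was 53 without control 1 and 12 without either labelled library. SNORD12C, in the ZFAS1 locus, went from 2.00 and 2.07 CPM in the controls to 17 and 19 CPM when labelled, a change of 3.14 ± 0.27. SNORD45B in RABGGTB rose by 2.54 ± 0.30. SNORA53 fell by 2.83 ± 0.57, from 7.94 and 26.8 CPM to 2.47 and 2.39 CPM. Summed over all 942 listed genes, the class was at 1185 and 2392 CPM in the controls and 1584 and 1647 CPM when labelled, and the groups overlapped.

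The largest mRNA changes were ranked among called genes with log2 CPM of 5 or more, averaged over libraries. Ranked genes also had no exon overlapping another gene on either strand, and no overlap of values between groups. Among these, the 8 largest increases came from GARNL3, ACTN2, NFIA, HOXD9, DZIP1L, ANKRD36, ANKRD36C and SPG7. NFIA, a transcription factor gene at chr1:60865259-61462793, was at 110 and 125 CPM in the controls and 737 and 711 CPM when labelled, a change of 2.62 ± 0.11 (edgeR adjusted p = 1.78e-05). GARNL3 rose by 2.95 ± 0.17 and ACTN2, which encodes a muscle alpha-actinin, by 2.72 ± 0.23. SPG7, which encodes the mitochondrial protease paraplegin, was at 74.6 and 99.2 CPM against 372 and 457 CPM, a change of 2.25 ± 0.16. ANKRD36 and ANKRD36C rose by 2.30 and 2.26. They are near-identical paralogs, so their counts are uncertain.

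Of the 8 largest decreases by the same rule, 7 were mtDNA-encoded mRNAs, which are made inside mitochondria. MT-ND3, a complex I subunit, fell most, from 498 and 392 CPM to 42.2 and 43.7 CPM, a change of -3.37 ± 0.14. FTL, the ferritin light chain, was the nuclear-encoded member, at 156 and 182 CPM against 31.3 and 24.4 CPM, a change of -2.60 ± 0.15 (edgeR adjusted p = 1.82e-05). After values were seen, the list was extended to nuclear-encoded genes. LAPTM4A, a lysosomal membrane protein, fell by 2.50 ± 0.14, VAMP7, a vesicle fusion protein, by 2.49 ± 0.13, and DAD1, a subunit of the oligosaccharyltransferase, by 2.41 ± 0.12. RPS4X, a ribosomal protein, fell by 2.46 ± 0.14, ARL6IP5 by 2.38 ± 0.17, and PTMS and SNX3 by 2.32.

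The share of genes that fell declined with coding length and span. In the shortest group of 5 equal groups of protein-coding genes by coding length, up to 762 bases, 10.1% rose and 57.0% fell. In the longest, from 2580 bases, 28.4% rose and 27.4% fell. By genomic span, 12.9% rose and 50.1% fell in the shortest group against 28.2% and 23.7% in the longest. The 343 tested genes with 1 exon had a median log2 fold change of -0.86, and the 13500 with more exons -0.25. Mean level moved with the result too: in the most abundant group 13.4% rose and 68.0% fell. Across 13843 genes, which share the 4 libraries, Spearman's rho between fold change and coding length was 0.281, with span 0.226 and with mean level -0.315. Within the most abundant group of 2769 genes, rho with coding length was 0.493. Genes with at least 1 retained-intron transcript in GENCODE rose in 23.0% of 7614 cases and fell in 37.6%, and 42.3% of the 6229 without one fell. The part of level in the shares by length was not tested beyond these values.

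**Figure D4:**
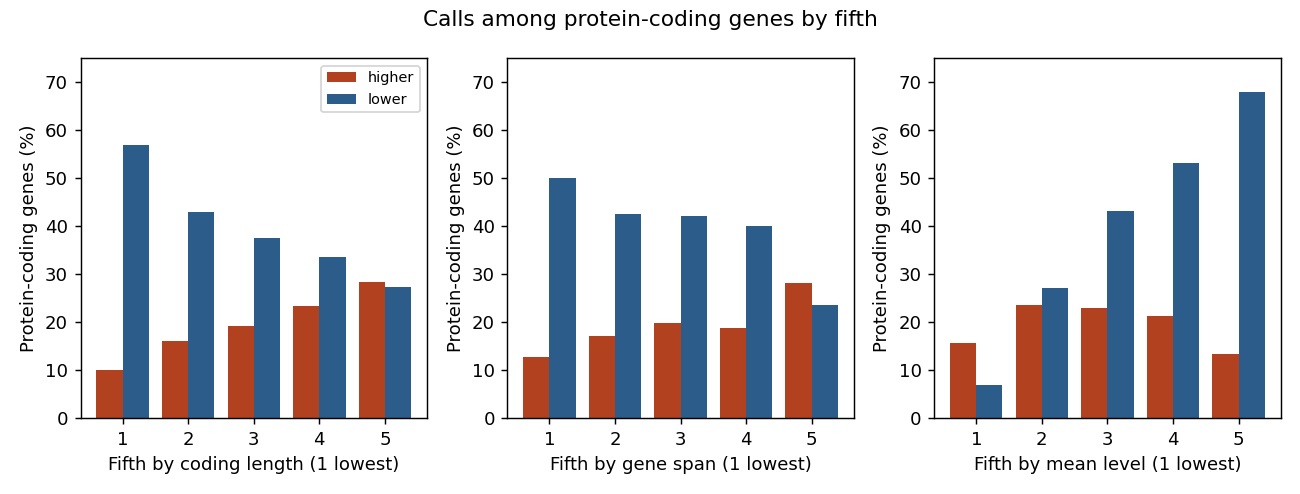
Percentage of protein-coding genes higher (red) and lower (blue) in 5 equal groups by coding length, gene span and mean level, with group 1 lowest. The share lower declines from 57.0% to 27.4% with coding length and climbs to 68.0% with mean level.

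mRNAs with detained introns, polyadenylated transcripts that stay nuclear until a late intron is removed, rose in 51.2% of cases, beside 19.4% of all protein-coding genes. Of 42 listed, 41 were tested, 21 rose and 9 fell. Their median was 0.38, and that of all protein-coding genes -0.26. With library size alone 32 rose and 3 fell. RBM5, a splicing regulator, was at 152 and 166 CPM in the controls and 461 and 498 CPM when labelled, a change of 1.59 ± 0.10 (edgeR adjusted p = 2e-05). The 4 CLK kinases, which phosphorylate SR proteins, rose: CLK4 by 1.52 ± 0.19, CLK1 by 1.24 ± 0.14, CLK3 by 0.77 ± 0.13 and CLK2 by 0.46 ± 0.10.

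CLK1 itself went from 43.9 and 54.3 CPM to 106 and 126 CPM, and no labelled value reached down to a control value. NKTR went from 243 and 220 CPM to 610 and 699 CPM and CCNL1, a cyclin, from 66.1 and 69.6 CPM to 167 and 218 CPM. CCNL2 rose by 1.17 ± 0.10 and MDM4, a p53 regulator, by 1.30 ± 0.14. MLXIPL, which encodes a carbohydrate-responsive factor, rose by 1.70 ± 0.19, PAXBP1 by 1.23 ± 0.12, and the helicase DDX17 by 1.11 ± 0.13. OGT and OGA, the enzymes that add and remove O-GlcNAc, rose by 0.80 ± 0.12 and 0.45 ± 0.11.

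The splicing factor SRSF2 fell, from 452 and 487 CPM to 188 and 196 CPM, a change of -1.29 ± 0.09 (edgeR adjusted p = 2.91e-05). HNRNPDL fell by 1.20 ± 0.10, SRSF7 by 0.74 ± 0.09 and SRSF5 by 0.52 ± 0.09, while SRSF11 rose by 0.74 ± 0.11. Counts per gene cannot separate the spliced from the intron-retaining form of any of these transcripts.

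Chromatin regulators were close to protein-coding genes as a whole, and their direction depended on scaling. Of 97 tested, 20 rose, 20.6%, and 43 fell, 44.3%, under TMM, with a median of -0.16. Among all protein-coding genes 19.4% rose and 39.7% fell, with a median of -0.26. With library size alone 49 chromatin regulators rose and 13 fell, with a median of 0.36, beside 0.26 for all protein-coding genes. BRD9, a bromodomain subunit of a SWI/SNF complex, rose by 1.75 ± 0.16, from 39.1 and 54.1 CPM to 149 and 165 CPM. HDAC8, a histone deacetylase, rose by 1.75 ± 0.12 and CHD2, a chromatin remodeller, by 1.33 ± 0.09. SMARCA5, the ISWI ATPase, fell by 1.58 ± 0.10, from 601 and 550 CPM to 197 and 189 CPM. TRIM28, a co-repressor of zinc finger proteins, fell by 1.49 ± 0.14 and SUZ12, a Polycomb subunit, by 1.40 ± 0.10.

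Zinc finger (ZNF) genes, most of which encode DNA-binding repressors, leaned the other way. Of 439 tested, of 510 listed, 151 rose, 34.4%, and 54 fell, 12.3%, with a median of 0.35. Among all protein-coding genes 19.4% rose and 39.7% fell. With library size alone, 276 ZNF genes rose and 17 fell. Without labelled library 3, 96 rose, and without labelled library 1, 33 fell. ZNF789 was at 9.20 and 11.2 CPM in the controls and 53.0 and 58.7 CPM when labelled, a change of 2.45 ± 0.17 (edgeR adjusted p = 2.39e-05). It overlaps ZNF394. ZNF22 fell by 1.78 ± 0.15.

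Under TMM, 19 of 21 functional groups of mRNAs had mostly members that fell and none had mostly members that rose. Scaling by library size alone left 13 groups with mostly members that fell, and 2, the ZNF genes and the chromatin regulators, with mostly members that rose. Among ribosomal protein genes 81 of 86 tested fell and none rose, and the median was -1.62. At an unadjusted p under 0.05, 0 were higher, and DESeq2 called 0 higher. RPL37 stood apart with values of 335 and 365 CPM in the controls and 337 and 368 CPM when labelled, which overlapped. With library size alone, RPL37 passed the test at a log2 fold change of 0.53. Replication-dependent histones fell in 40 of 45, and actin and tubulin genes in 18 of 20. Nuclear-encoded subunits of oxidative phosphorylation fell in 71 of 78, and secretory and ER genes in 80 of 97.

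Groups whose proteins work in the nucleus were divided, and ZNF genes rose more often than they fell. Splicing factor genes fell in 57 of 67, with a median of -1.09, and nuclear pore genes in 23 of 30. With library size alone these counts were 46 and 9. RBM5 and SRSF11, which rose, were counted on the detained-intron list and not among the splicing factors. On that list 21 members rose and 9 fell, SRSF2 and SRSF7 among the latter. The splicing factor count therefore depends on how the lists were drawn. Aminoacyl-tRNA synthetase genes fell in 23 of 40 with a median of -0.40, which became 0.12 with library size alone. IARS2, a mitochondrial synthetase, fell by 2.01 ± 0.09, from 386 and 405 CPM to 95.4 and 101 CPM.

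Against their groups, 49 of the 938 mRNAs tested in the 19 lists rose, a number that was 32 without labelled library 1. They are defined by this comparison, so their values are a description. The 49 are a smaller share of the 938 than the 19.4% that rose among all protein-coding genes. Of the 49, 13 had a log2 fold change of at least 1. PTBP2, the neuronal polypyrimidine tract-binding protein, was at 56.8 and 55.2 CPM in the controls and 156 and 188 CPM when labelled, a change of 1.61 ± 0.12 from a list with a median of -1.09. U2AF1, a splice site recognition factor, was at 5.88 and 12.2 CPM against 43.9 and 60.7 CPM, a change of 2.53 ± 0.32. U2AF1 has a near-identical copy in the GRCh38 assembly, and TIMM23B, which rose by 1.98 ± 0.16, has near-identical relatives of TIMM23, so both are uncertain.

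Of 58 lysosomal genes 10 rose, 17.2%, under the 19.4% of all protein-coding genes, and of 40 aminoacyl-tRNA synthetase genes 7 rose, 17.5%. The lysosomal count was 6 without labelled library 1. HEXA, a subunit of beta-hexosaminidase, was at 47.4 and 57.4 CPM in the controls and 130.2 and 123.1 CPM when labelled, a change of 1.27 ± 0.12. GALNS rose by 1.36 ± 0.18, MANBA by 1.37 ± 0.15 and IDUA by 1.65 ± 0.31, all of them hydrolases, whereas ATP6V0C, a proton pump subunit, fell by 2.20 ± 0.14. In the mitochondrial groups MRPS25, of the small mitochondrial ribosomal subunit, was at 138 and 155 CPM against 322 and 356 CPM, a change of 1.21 ± 0.10. NDUFA10 of complex I rose by 1.02 ± 0.10 and PCCA, a propionyl-CoA carboxylase subunit, by 1.18 ± 0.15. FARS2, the mitochondrial phenylalanyl-tRNA synthetase, rose by 1.55 ± 0.27. HEXA, GALNS, MANBA, IDUA, MRPS25 and PCCA have exons that overlap another gene, so their counts are uncertain.

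PSMG4, a proteasome assembly chaperone, rose by 1.30 ± 0.16 and PMM2, of mannose metabolism, by 1.15 ± 0.13. Exons of PSMG4 and of PMM2 overlap other genes, so these counts are uncertain as well. The 49 had a median span of 34245 bases and 12 exons, against 15811 bases and 7 exons for the 762 that fell with their list. Their merged exons were 2.68 times as long as their main transcript, against 1.61 times. Retained-intron transcripts were annotated for 71.4% and 63.6%, and an overlap with another gene for 59.2% and 52.4%. Median control level was 52.4 and 144 CPM. What level, overlap and structure contribute was not tested.

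**Figure D5:**
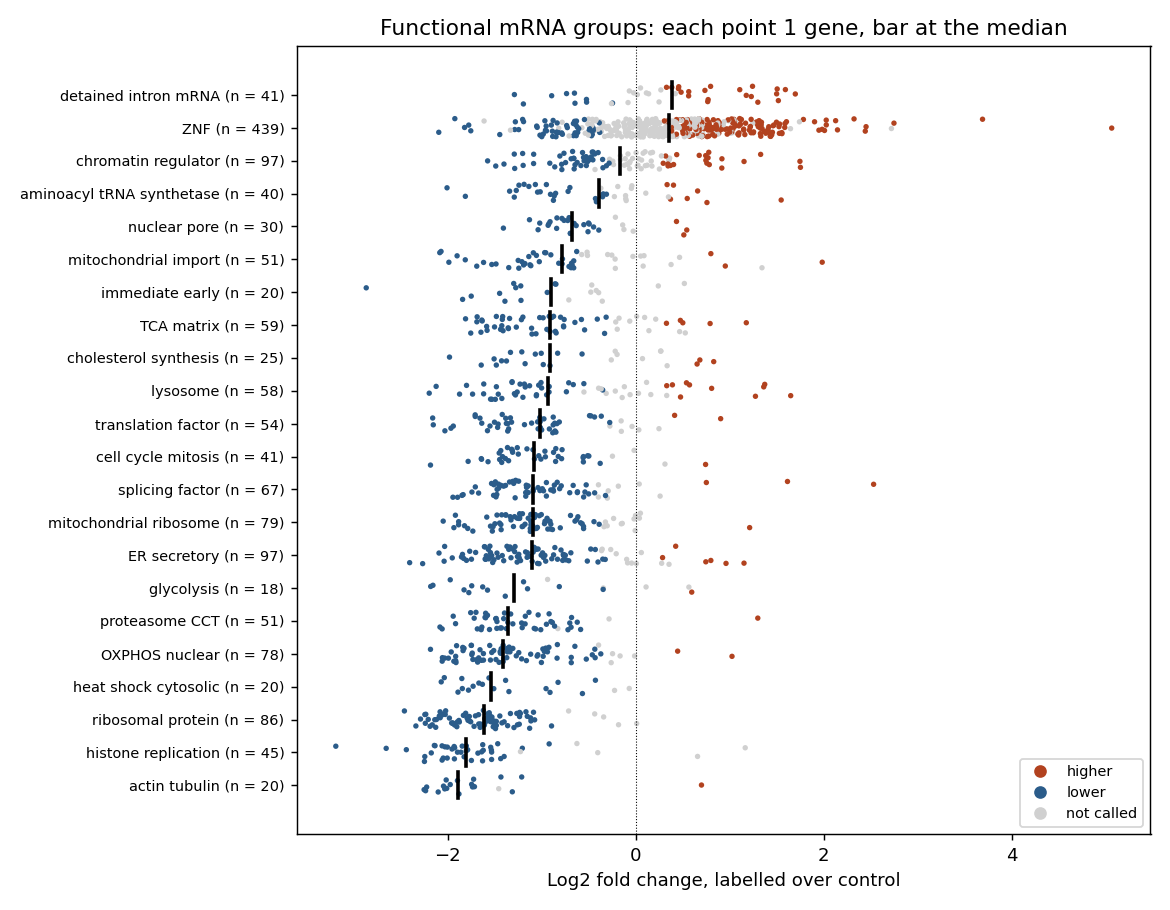
Log2 fold change of each tested member (points: red higher, blue lower, grey not called) in the mRNA groups, with a black bar at each median and the number tested in brackets. Ribosomal protein genes centre at -1.62, while single members of the splicing factor, lysosomal and mitochondrial groups lie to the right of 0.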

How the data were processed

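The authors deposited read counts per gene from HTSeq after STAR alignment, per the submitters' processing notes, which also name Trimmomatic, SAMtools, bedtools, DESeq2, GRCh38.p13 and hg38. Versions and strand setting: not given in the sources used here. Columns were given to a group by name. They are numbered 1 and 3, where the titles number 1 and 2, so libraries carry the column numbers. The table also held 4 count columns and 2 comparison columns that matched no sample and were not used. Of 60664 identifiers, 58396 were found in GENCODE 29, which supplied types and positions. The test was edgeR 4.0.16 under R 4.3.3, on counts as deposited (robust quasi-likelihood, TMM, filterByExpr minimum count 10, prior count 0.125, two-sided, adjusted p under 0.05). CPM values are TMM-scaled, and SE was derived as |log2 fold change| over the root of the F statistic. A floor of 3 counts is 0.171 to 0.311 CPM and covers counting error only.

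The authors' deposited table gives a log2 fold change and an adjusted p-value per gene, with 5630 genes higher and 5151 lower. The 10528 genes called there and by edgeR had the same sign in both. DESeq2 1.42.0 run here gave adjusted p values within 1% of theirs for 100% of genes compared. On simulated data of 19427 genes made from these libraries, 200 genes were changed before the count filter. Of the changes tested, 56.5% of log2 1 and 73.4% of log2 2 were recovered. In the real comparison 57.3% of tested genes were called, a far larger share, so these rates do not measure its recovery. Replicates differed by more than sampling noise, with a chi-square per degree of freedom of 26.7 for controls and 4.99 for labelled libraries. Alternatives were another scaling, DESeq2, other filters, each library left out and a replicate block.

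Members and the 27 gene lists were chosen with earlier results of these data known. Named genes were the 8 highest and 8 lowest called mRNAs with log2 CPM of at least 5 and no exon overlapping another gene. Further named genes were the 2 highest and lowest of other classes, list extremes, departing mRNAs and the members of the nuclear and detained-intron lists. Other genes were named after their values were seen. XIST, Y-linked genes and 1 detained-intron mRNA, which stays in that list's counts, are not reported here.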

Additional observations from a re-analysis of the deposited data

How the results depend on the processing

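Leaving out 1 library and pooling the spread assumes that a lone library varies like the other group. The lowest and highest counts were then 3077 and 8425 for genes higher, 4520 and 6953 for genes lower, 1766 and 3642 for protein-coding genes higher, 661 and 2281 for long non-coding genes higher and 56 and 250 lower. They were 18 and 182 for small nucleolar RNA genes higher and 12 and 53 lower, 428 and 1246 for pseudogenes higher and 57 and 260 lower, 96 and 199 for ZNF mRNAs higher and 33 and 70 lower, and 32 and 59 for mRNAs that depart upward. For intron-embedded genes, an addition made after seeing the data, they were 415 and 1537 higher and 13 and 72 lower. Counts were lowest without a labelled library and, for most classes, highest without a control.

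With library size alone, 9122 genes were higher and 3351 lower. Protein-coding genes were 5026 and 3075, long non-coding genes lower 58, small nucleolar RNA genes higher 137, pseudogenes lower 99 and intron-embedded genes lower 21. Detained-intron mRNAs were 32 higher and 3 lower, chromatin regulators 49 and 13, ZNF mRNAs 276 and 17, and mRNAs that depart downward 30 against 0. DNAJB6 changed sign to 0.29 and ENSG00000280046 to 0.14. DESeq2 gave 107 pseudogenes and 25 intron-embedded genes lower. A minimum count of 50 gave 621 pseudogenes higher and 87 lower, and 606 intron-embedded genes higher and 25 lower, with fewer genes tested. The other causes were not tested. TMM without mtDNA and small RNA genes, and no filter, moved none of these and none of 60 class, list and position counts of at least 10 beyond 1.5 times.

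Deviations of same-numbered libraries from their group means correlated at -0.02 over all tested genes. With 2 libraries per group this is a single value, so it cannot decide whether the replicate numbers pair the samples. With the replicate block, 5075 genes were higher, 5696 lower and 110 pseudogenes lower. It moved 11 of the 60 counts beyond 1.5 times: miRNA genes higher went from 122 to 66, misc_RNA from 164 to 85, snRNA from 69 to 32, and small RNA copies in same-strand introns from 137 to 72. A floor of 3 counts was 0.171 CPM in control 1 and 0.311 CPM in labelled library 3.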

Other observations

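HOX genes, the transcription factors that pattern the body axis, were looked at after their values were seen. The paralog groups were drawn then too. Of 36 tested, 19 rose, 52.8%, and 11 fell, 30.6%, beside 19.4% and 39.7% of all protein-coding genes. In paralog groups 1 to 2, 1 of 3 rose and 1 fell, and in groups 7 to 9, 4 of 9 rose and 3 fell. In paralog groups 3 to 6, 12 of 13 rose and none fell: HOXB6 went from 43.1 and 45.0 CPM to 148 and 163 CPM, and HOXA3 from 50.1 and 49.3 CPM to 153 and 162 CPM. In groups 10 to 13, 2 of 11 rose and 7 fell: HOXD13 was at 124 and 136 CPM in the controls and 37.7 and 33.7 CPM when labelled, while HOXD10 rose from 116 and 109 CPM to 364 and 445 CPM. All 13 genes of groups 3 to 6 lay within or touched another protein-coding gene on the same strand in GENCODE 29, against 4 of 11 in groups 10 to 13. Its part in the difference was not tested.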
